A study of Homo sapiens with 6 samples.

Results

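PDK2, PDK4 and PDHB, 3 genes that set the activity of the pyruvate dehydrogenase complex, were examined in RNA-seq of HT-29 cells. They were taken by gene symbol, 3 rows of the 5681 in the deposited table, and they were picked with earlier results of these data known. HT-29 is an established human colorectal cancer cell line that grows attached to a surface. The 3 Scramble libraries, numbered 1 to 3, came from cells with a control hairpin and carry the genotype label WT. The 3 shOGT libraries, numbered 4 to 6, came from cells with a hairpin against OGT, the enzyme that adds O-GlcNAc to proteins, and are labelled as OGT knock down. Both groups therefore carried a hairpin. Cells were knocked down in culture, and the sources used here do not say which of the study's OGT hairpins was sequenced. The methods state that measurements were taken from separate samples, without saying whether each library was a separate culture. The p-values below then measure only the spread between these libraries, which may be technical.

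The pyruvate dehydrogenase complex sits in the mitochondrial matrix and turns pyruvate into acetyl-CoA, the step by which carbon from glycolysis enters the TCA cycle. PDHB encodes the beta subunit of its first enzyme, E1, which decarboxylates pyruvate. PDK2 and PDK4 are kinases that phosphorylate the alpha subunit of E1 and switch the complex off, and phosphatases switch it on again. PDK2 is expressed in many tissues, whereas PDK4 is known for its induction in fasting through PPAR and FOXO factors. Proliferating tumor cells often hold the complex partly phosphorylated.

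All 3 genes fell in shOGT, in a table of changed genes where 47.2% of those tested were called lower, as defined below. The falls of PDK4 and PDHB, unlike that of PDK2, were under 2-fold after a median of ratios rescaling and in DESeq2. PDK2 kept 8.90% of its Scramble level, PDHB 37.2% and PDK4 44.3%. The fall was therefore far deeper for one kinase than for the other, and the kinase with the larger count in Scramble became the one with the smaller count in shOGT. In shOGT libraries 5 and 6 the difference between the 2 kinases was within counting error. In bulk RNA, fewer cells expressing a gene and less RNA per cell cannot be told apart.

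The promoters of the 3 genes are shown because MYC, a factor that binds the E-box, is at the center of the study. All 3 genes were lower in shOGT, though by unlike amounts, and a shared cause was not tested. RefSeq (GRCh38.p14) gave windows from 250 bases before to 50 bases after a start for 3 of 3 genes, 3 windows for PDK2 and 1 each for PDK4 and PDHB. Of each window shown, only the bases before it first meets an annotated exon of the gene are printed, and capitals mark the canonical E-box. The PDK2 stretch is chr17:50095101-50095274 on the plus strand, before the second of its starts. It lies inside the annotated gene, which begins at 50094737. This is the only PDK2 window with a canonical E-box. The first PDK2 window has 250 such bases without that motif and is not printed, and the third has 0. The PDK4 stretch is chr7:95596517-95596766 and the PDHB stretch chr3:58433858-58434082, both on the minus strand.
PDK2: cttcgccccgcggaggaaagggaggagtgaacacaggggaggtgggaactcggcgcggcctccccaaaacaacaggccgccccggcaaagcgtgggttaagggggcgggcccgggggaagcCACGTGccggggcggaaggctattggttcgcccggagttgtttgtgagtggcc
PDK4: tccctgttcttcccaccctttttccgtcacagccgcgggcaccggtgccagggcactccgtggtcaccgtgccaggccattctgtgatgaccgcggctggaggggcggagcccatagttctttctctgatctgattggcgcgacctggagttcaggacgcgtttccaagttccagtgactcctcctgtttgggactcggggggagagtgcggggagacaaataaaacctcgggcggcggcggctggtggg
PDHB: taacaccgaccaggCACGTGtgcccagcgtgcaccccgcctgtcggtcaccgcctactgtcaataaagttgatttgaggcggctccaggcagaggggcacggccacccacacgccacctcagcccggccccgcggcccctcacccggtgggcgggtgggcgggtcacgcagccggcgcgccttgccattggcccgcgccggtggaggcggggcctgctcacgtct

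The canonical E-box, CACGTG, occurred once in the second PDK2 window and once in the PDHB window, and it had 0 matches in the PDK4 window and in the other PDK2 windows. Its first base lay at -129 from the PDK2 start, at 50095222 to 50095227 on chromosome 17, and at -236 from the PDHB start, at 58434063 to 58434068 on chromosome 3. Of all 35116 RefSeq windows of this length, 7.26% held this motif on either strand, and 6.34% held it before the start. The looser E-box CANNTG, which includes the canonical one, was found in 68.7% of windows and had 3 matches in the first PDK2 window. The CCAAT box, CCAAT, is common at promoters and was found in 34.6% of windows. It had 3 matches in the second PDK2 window, 1 in PDK4 and 1 in PDHB.

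The core of the hypoxia response element, ACGTG, lies inside the canonical E-box, and it was found in 21.4% of windows. Its 2 matches in the second PDK2 window were the 2 strands of the E-box itself, and PDHB had the same 2 and 1 more at -32. None of these windows held GTAAACA (the FOXO site), TCAAGGTCA (the site of the estrogen-related receptors), TGACGTCA (the CRE), GGGGCGGGG (an SP1 GC box), CACGCG (a variant E-box), the PPAR DR1 element or the NRF1 site, on either strand. Such a match is a description of letters and not a bound site. For PDK2 the paper reports a predicted c-Myc site in the promoter and enrichment of ectopic c-Myc there by chromatin immunoprecipitation in HT-29 cells. It also reports a promoter reporter, run in another cell line with c-Myc overexpressed, whose signal fell when that site was mutated. Whether that site is the E-box found here was not tested. The share of G and C was 51.3%, 69.7% and 65.0% in PDK2 windows 1, 2 and 3, 70.3% in PDHB and 60.7% in PDK4, against a median of 58.7% over all windows.

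**Figure D1:**
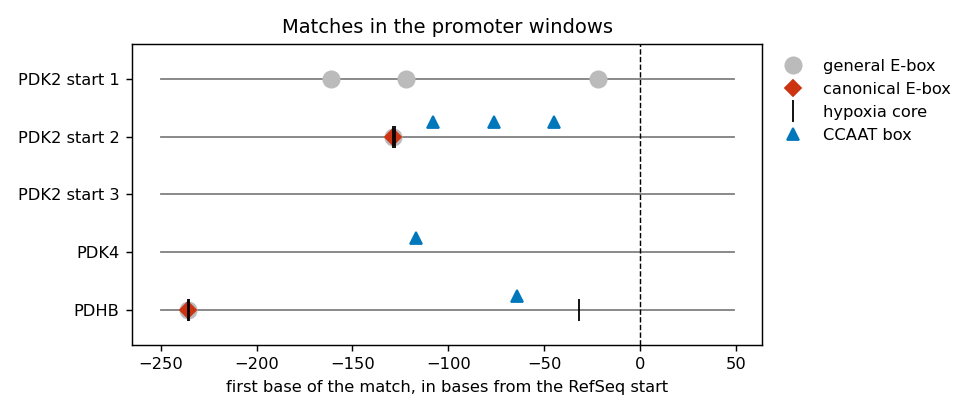
Matches of 4 motifs in the 5 RefSeq promoter windows of PDK2, PDK4 and PDHB, by distance in bases of the first base of the match from the start at 0. The canonical E-box appears in the second PDK2 window at -129 and in PDHB at -236, and the PDK4 window holds 1 CCAAT box and no E-box.

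The deposited values are normalized counts, reads divided by 1 size factor per library (1.09 to 1.13 in Scramble and 0.879 to 0.950 in shOGT), with no division by gene length. Whole reads were recovered for 100% of values, and the reads on the table's genes numbered 4145921 to 4504303 in Scramble and 3302558 to 3471647 in shOGT, sums which are not the depth of the libraries. OGT itself was at 9628, 11638 and 11620 in Scramble and at 484, 621 and 537 in shOGT, which retained 4.99%. The table holds only changed genes, for which the study names a cut of more than 2-fold and a p-value under 0.05. Its genes were thus already selected on these same libraries. The adjusted p-values given here are therefore small in part by that selection, and they are no independent evidence. A gene was called here where limma gave a log2 fold change beyond 1 in size and a Benjamini-Hochberg adjusted p under 0.05, and 99.4% of 5671 tested genes were called, 52.2% higher and 47.2% lower in shOGT. The groups did not overlap for 99.5% of genes. That 3 of 3 members were called, without overlap, is thus near what the table gives for any gene, and 47.2% of its genes were called in the direction that they share.

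Markers fixed for colorectal epithelium had 4 of 10 genes in the table, with KRT19 and KRT20 higher and VIL1 and LGALS4 lower, and a summed level of 9048 to 10922 in Scramble and 18461 to 20450 in shOGT. Of 6 fibroblast markers 1 was listed, PDGFRB, at 0 to 1.80 in Scramble with 0 in 2 libraries, and at 10.5 to 17.1 in shOGT. Of 6 leukocyte markers 3 were listed, LYZ, CD14 and CD79A, summing to 7934 to 8636 and 15684 to 17437, nearly all of it LYZ, and the leukocyte-defining PTPRC and CD3E were not analysed here. Of 4 endothelial markers 1 was listed, PECAM1, at 42.3 to 51.4 and 129 to 199.99. The part of these shifts in the values below was not tested.

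PDK2 (ENSG00000005882) lies on the plus strand of chromosome 17, from 50094737 to 50112152 of GRCh38 in GENCODE version 29, with 5481 exon bases and 16 transcripts, 8 of them coding. Its normalized counts were 363, 269 and 279 in Scramble libraries 1, 2 and 3. In shOGT libraries 4, 5 and 6 they were 20.0, 41.8 and 19.3. The highest shOGT library stood far below the lowest Scramble library. The means were 304 ± 51.4 and 27.0 ± 12.8 (SD, n = 3 each), which is 11.2-fold lower. The log2 fold change on normalized count + 1 was -3.52 (95% interval -4.11 to -2.93), with a limma adjusted p of 2.33e-08 after Benjamini-Hochberg adjustment.

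The PDK2 values rested on 299 to 409 reads per Scramble library and on 39, 19 and 17 reads in shOGT libraries 5, 4 and 6. The exact 95% Poisson interval in shOGT library 5 ran from 29.7 to 57.1 normalized counts, and in shOGT library 6 from 11.3 to 31.0, so these 2 intervals overlapped. Intervals of this kind cover counting error only. The SD between libraries was 3.11 times the SD from counting in Scramble and 2.36 times in shOGT, and the coefficient of variation was 16.9% and 47.2%. Scramble library 1 and shOGT library 5 were the high ones. When 1 library was omitted, PDK2 ranged from -3.87, without shOGT library 5, to -3.33, without shOGT library 6, on the log2 scale.

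Among the 2677 genes called lower, 44 had a lower log2 fold change than PDK2, or 1.64%. The median of these genes was -1.55. By its mean level among the table's genes, PDK2 went from percentile 63.4 in Scramble to percentile 29.6 in shOGT. The study singled PDK2 out from these same libraries, so its rank is a description and no independent evidence. Apart from these libraries, the paper reports less PDK2 mRNA by quantitative PCR and less PDK2 protein on OGT depletion. It reports more of both on OGT overexpression, in HT-29 and another colorectal cancer line. The opposite strand bears SAMD14, whose exons cover 38.6% of the exon bases of PDK2. SAMD14 was not in the table, and whether the counting used strand is not given in the sources used here, so reads of either gene may be mixed in the PDK2 count. Of the stretches of 75 bases in the longest coding transcript of PDK2, 60.6% occur on the opposite strand of SAMD14 transcripts, and none recurred on the same strand of a transcript of another gene.

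PDK4 (ENSG00000004799) lies on the minus strand of chromosome 7, from 95583499 to 95596491, with 4519 exon bases and 5 transcripts, 1 of them coding. It was the least counted of the 3 genes in Scramble, at 80.7, 94.6 and 113 in libraries 1, 2 and 3. In shOGT libraries 4, 5 and 6 it stood at 36.8, 55.7 and 35.3. The groups did not overlap, though the gap from 55.7 to 80.7 was narrower than the Scramble range of 80.7 to 113. Means of 96.2 ± 16.3 and 42.6 ± 11.4 (SD, n = 3 each) gave a 2.26-fold lower level. The log2 fold change was -1.17 (95% interval -1.72 to -0.63, adjusted p = 0.000510 by limma with Benjamini-Hochberg adjustment), and the interval spans the 2-fold threshold.

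The PDK4 counts were low, with 91 to 123 reads in Scramble and 31 to 52 in shOGT. For shOGT library 5 the exact 95% Poisson interval of 41.6 to 73.0 overlapped that of Scramble library 1, 65.0 to 99.1. The SD between libraries was 1.75 times that from counting in Scramble and 1.67 times in shOGT. Of the genes called lower, 80.0% had a lower log2 fold change than PDK4. Its call depended on the scaling: after a median of ratios rescaling on the table's genes, which shifted the table's median log2 fold change up by 0.71, PDK4 was at -0.47 (limma adjusted p = 0.0990) and was no longer called. Under that rescaling the whole table had 2980 genes higher and 1090 lower, in place of 2959 and 2677.

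PDHB (ENSG00000168291) lies on the minus strand of chromosome 3, from 58427630 to 58433857, with 4717 exon bases and 10 transcripts, 4 of them coding. Its normalized counts were 447, 424 and 446 in Scramble libraries 1, 2 and 3. They were 156, 167 and 167 in shOGT libraries 4, 5 and 6. Replicates lay close together in both groups and the groups were far apart. The means were 439 ± 12.8 and 163 ± 6.60 (SD, n = 3 each), 2.69-fold lower in shOGT. The log2 fold change was -1.42 (95% interval -1.68 to -1.16), with an adjusted p of 5.32e-08 from limma with Benjamini-Hochberg adjustment.

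The SD of PDHB was 0.645 times the SD from counting in Scramble and 0.495 times in shOGT, so its libraries spread no more than their reads allow. It had 471 to 504 reads in Scramble and 147 to 156 in shOGT. Of the genes called lower, 59.0% had a lower log2 fold change than PDHB. After the median of ratios rescaling PDHB was at -0.71 (limma adjusted p = 0.000150), under the 2-fold threshold though still lower, while PDK2 stayed called at -2.81. The antisense gene AC135507.1 covers 7.63% of the exon bases of PDHB and 4.96% of its stretches of 75 bases on the opposite strand, and was not in the table.

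**Figure D2:**
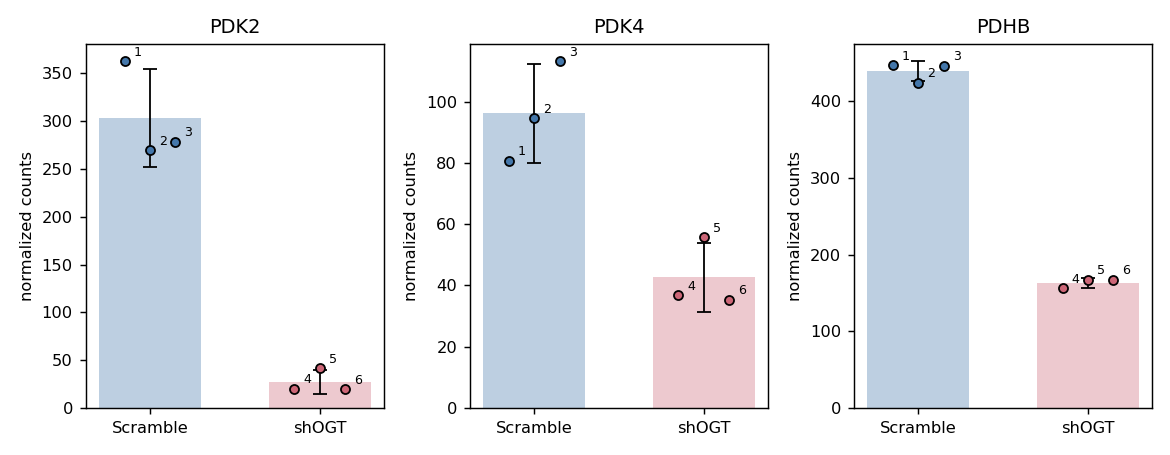
Normalized counts of PDK2, PDK4 and PDHB in each library (points, with the library number), with bars at the group mean and error bars of 1 SD (n = 3 libraries per group). All shOGT points lie below all Scramble points for each gene, and shOGT library 5 is the highest of its group for PDK2 (41.8) and PDK4 (55.7).

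The ratio between 2 genes within a library does not depend on how libraries are scaled, and so the genes were set against each other in this way. The ratio of PDK2 to PDK4 was 4.49, 2.85 and 2.46 in Scramble libraries 1, 2 and 3. It was 0.543, 0.750 and 0.548 in shOGT libraries 4, 5 and 6. PDK2 had more counts than PDK4 in 3 of 3 Scramble libraries and fewer in 3 of 3 shOGT libraries. Log2 ratios were taken on normalized counts + 1 and so depend slightly on the scaling. That of PDK2 to PDK4 differed by -2.35 between the groups (exact two-sided permutation p = 0.1, 0.15 after Benjamini-Hochberg adjustment over 3 ratios). On recovered reads with no pseudocount the difference was -2.38. The value of 0.1 is the smallest p that 3 libraries against 3 can give.

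PDK2 relative to PDHB was 0.812, 0.635 and 0.625 in Scramble and 0.128, 0.25 and 0.116 in shOGT. These groups also stood apart, with a log2 difference of -2.10 (exact two-sided permutation p = 0.1, adjusted 0.15). PDK4 relative to PDHB was 0.181, 0.223 and 0.254 in Scramble and 0.236, 0.333 and 0.211 in shOGT. Here the groups overlapped, and the log2 difference of 0.25 was within their spread (exact two-sided permutation p = 0.5, adjusted 0.5). The kinase PDK4 and the E1 subunit thus fell by amounts that these libraries did not separate, whereas the ratio of PDK2 to either was lower in each shOGT library than in any Scramble library.

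**Figure D3:**
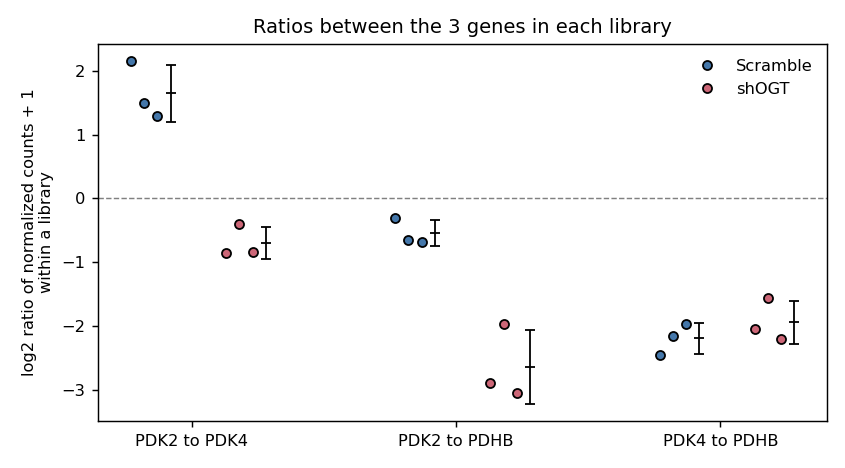
The log2 ratio of normalized counts + 1 between the genes within each library (points), with the group mean and 1 SD beside them (n = 3 libraries per group). The PDK2 to PDK4 ratio lies above 0 in every Scramble library and below 0 in every shOGT library, and the PDK4 to PDHB ratios of the groups overlap.

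Summed over the 2 kinases, the level was 400 ± 40.3 normalized counts in Scramble and 69.6 ± 24.1 in shOGT (SD, n = 3 each), or 17.4% of Scramble. PDK2 made up 81.8%, 74.0% and 71.1% of that sum in Scramble libraries 1, 2 and 3. Its share was 35.2%, 42.9% and 35.4% in shOGT libraries 4, 5 and 6. The exact Clopper-Pearson 95% interval of the lowest Scramble share was 66.6% to 75.4%, and that of the highest shOGT share was 32.5% to 53.7%. These intervals cover counting error only, and PDK2 spread more than that between libraries. The other kinases of the complex, PDK1 and PDK3, were not analysed here, so the sum is not the whole kinase pool.

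Levels were compared between genes per kilobase of exon. In Scramble, PDHB stood at 93.1 ± 2.72 normalized counts per kilobase of exon, PDK2 at 55.4 ± 9.37 and PDK4 at 21.3 ± 3.61 (SD, n = 3 each). In shOGT, PDHB stood at 34.6 ± 1.40 on this scale, PDK4 at 9.43 ± 2.51 and PDK2 at 4.93 ± 2.33. The order was PDHB, PDK2, PDK4 in 3 of 3 Scramble libraries and PDHB, PDK4, PDK2 in 3 of 3 shOGT libraries. Neighbors in the order did not overlap in Scramble. In shOGT the highest PDK2 value of 7.62 lay close under the lowest PDK4 value of 7.81. Per length, PDK2 to PDK4 was 2.03 to 3.71 in Scramble and 0.448 to 0.618 in shOGT, and with the length of the longest coding transcript, a choice made after the values were seen, 2.56 to 4.67 and 0.564 to 0.780.

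Library 5 was the highest shOGT library for PDK2 and PDK4 and also for OGT, at 621, while PDHB was at 167 in both libraries 5 and 6. In Scramble, library 1 was the highest for PDK2 and the lowest for PDK4 and OGT. The genes with the most similar pattern over the 6 libraries were found by the root mean square difference of log2 values centered on the Scramble mean, among 4816 genes. Nearest to PDK2 were ACACB, PRX and REEP6, at differences of 0.21, 0.21 and 0.25. ACACB encodes the mitochondrial acetyl-CoA carboxylase, and its counts were only 1.05 to 4.28 in shOGT.

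Nearest to PDK4 were UBQLN4P1, AMOT and CEP152, at differences of 0.09, 0.12 and 0.12. UBQLN4P1 is a pseudogene whose reads may be shared with its parent. Its call was lost without Scramble library 3 (-0.99), after the median of ratios rescaling (-0.43) and in DESeq2 (-0.41). AMOT and CEP152 lost theirs too, at -0.54 each after that rescaling and at -0.57 and -0.51 in DESeq2. Nearest to PDHB were PDLIM1, EPB41L5 and C11orf95, at 0.03, 0.03 and 0.04. Their calls were lost in DESeq2 and after the median of ratios rescaling, which put their log2 fold changes at -0.72, -0.69 and -0.75. None of the members was among the 3 nearest genes of another by this measure: PDHB ranked 478 for PDK4, and PDK4 ranked 1894 for PDK2. On the chromosome, 5 of the 6 nearest coding genes on either side of the members were not in the table. The exception was DYNC1I1, 176015 bases from PDK4, whose log2 fold change was 2.52, opposite to that of PDK4.

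The lists of related genes were read next, with the reminder that nearly every listed gene was called and that the tested genes had a median log2 fold change of 1.05. Of 42 genes, namely OGT, the genes of these lists and the nearest-pattern genes above, 24 were under 2-fold in at least 1 alternative, mostly the median of ratios rescaling and DESeq2, and none of the 42 changed sign. Of 6 subunits of the complex, 1 was in the table, PDHB. Of 7 kinases and phosphatases of the complex, 2 were in the table, PDK2 and PDK4. The remaining subunits PDHA1, PDHA2, DLAT, DLD and PDHX, the kinases PDK1 and PDK3 and the phosphatases PDP1, PDP2 and PDPR were not analysed here. In this group of 13 genes, 3 of 3 in the table were called lower, with a median of -1.42, against 47.2% of all tested genes.

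Genes that supply or use pyruvate had 8 of 20 in the table, 6 higher and 2 lower, with a median of 1.87 (log2), which became 1.5 once genes at the counting floor were set to their bounds. PKM, the pyruvate kinase that makes pyruvate in tumor cells, rose from 23121 ± 852 to 48491 ± 3995 normalized counts (SD, n = 3 each), with a log2 fold change of 1.07. ME1, the cytosolic malic enzyme, rose by 2.49 on the log2 scale, and SLC16A7, a monocarboxylate transporter, by 1.26. GPT2, the mitochondrial alanine aminotransferase, fell by 1.40 on the log2 scale (-0.69 after the median of ratios rescaling), and LDHD, a D-lactate dehydrogenase, fell by 2.40. LDHD had only 14, 2 and 3 reads in shOGT libraries 4, 5 and 6. It ranged from -3.09 to -1.93 with 1 library left out. The lactate dehydrogenase genes LDHC, LDHAL6A and LDHAL6B had at most 3 reads in each Scramble library and were at least 3.4-, 5.37- and 3.37-fold higher.

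The complex needs lipoic acid, whose synthesis depends on iron-sulfur clusters, and 4 of 17 genes of cofactor supply were in the table. LIPT2, a lipoyl transferase, was higher (log2 fold change 1.16). ISCA2, IBA57 and BOLA3, which act in the assembly or delivery of mitochondrial iron-sulfur clusters, were lower, at -1.53, -1.13 and -1.35. The list's median was -1.24. After the median of ratios rescaling ISCA2, IBA57 and BOLA3 were under 2-fold, at -0.82, -0.42 and -0.64, and IBA57 was so too without shOGT library 6 (-0.97).

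Of 9 genes of the sister dehydrogenase complexes, 3 were in the table, with a median of -1.86. DHTKD1, the E1 subunit of the 2-oxoadipate complex, fell by 1.91 on the log2 scale. BCKDK, the kinase that switches off the branched-chain complex as PDK2 and PDK4 do for pyruvate dehydrogenase, was at 1138, 1171 and 1100 in Scramble and at 259, 276 and 421 in shOGT. Its groups did not overlap, and its log2 fold change was -1.86. OGDHL had 0 reads in each Scramble library and 1, 4 and 6 reads in shOGT libraries 4, 5 and 6, too few to give a fold.

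Of 16 TCA cycle genes downstream of the complex, 2 were in the table, with a median of -0.24 from 2 values of opposite sign. SDHA, a subunit of succinate dehydrogenase with near-identical pseudogene copies that leave its count uncertain, was higher at 1.07 and slipped to 0.99 without shOGT library 4. SUCLG2, the GTP-forming subunit of succinyl-CoA ligase, was lower at -1.55, or -0.84 after the median of ratios rescaling.

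Known regulators of PDK4 had 5 of 11 in the table, 4 lower and 1 higher, with a median of -1.26. PPARA, PPARD and PPARG, the nuclear receptors of fatty acids, had log2 fold changes of -1.12, -1.26 and -1.72, and ESRRA, an estrogen-related receptor, had -1.29. After the median of ratios rescaling PPARA, PPARD and ESRRA were under 2-fold, at -0.40, -0.54 and -0.57, and DESeq2 put PPARG at -0.98. PPARGC1A, the coactivator of these receptors, went the other way, from 92.2, 90.1 and 82.8 to 168, 257 and 281, at 1.37. Among 14 genes of fatty acid use that often move with PDK4, 2 were listed in the table, with a median of -1.11. Each of them was called lower, as were 47.2% of all tested genes. ACADVL and ACADM, acyl-CoA dehydrogenases, were at -1.18 and -1.04, and the median of ratios rescaling left them at -0.46 and -0.32. ACADM was also just under 2-fold without shOGT library 4 and after rescaling to equal totals (-0.95).

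The MYC network, whose factors bind the E-box, had 4 of 11 genes in the table, with a median of -1.29. Each of them was called lower, as were 47.2% of all tested genes. MYC stood at 4476, 5101 and 4809 in Scramble and at 2251, 1970 and 2665 in shOGT. Library 5 was its lowest shOGT library. By contrast with the RNA values here, the paper reports less c-Myc protein on OGT depletion but no significant decrease of its mRNA by quantitative PCR. The log2 fold change of MYC was -1.07, and it was under 2-fold without shOGT library 5 (-0.97), after rescaling to equal totals (-0.99) and after the median of ratios (-0.35). MNT and MXD4 and MXD3, repressors that pair with MAX, were at -1.47, -1.12 and -3.09, and MXD4 was at -0.98 without Scramble library 1. MXD3 had only 6 reads in shOGT library 5 and was at -2.39 without that library. After the median of ratios rescaling MNT and MXD4 were at -0.76 and -0.40.

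Genes of the hypoxia response, both its factors and its targets, had 4 of 12 in the table, with a median of -1.37. CA9, a carbonic anhydrase induced by hypoxia, fell by 4.23 on the log2 scale, and EPAS1 and ARNT, subunits of hypoxia-inducible factors, had -1.34 and -1.40, or -0.62 and -0.68 after the median of ratios rescaling. EGLN3, an oxygen sensor that is itself induced by hypoxia, was higher at 1.13, though 0.90 without Scramble library 2. PDK1, the kinase best known as a hypoxia target, was not analysed here.

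**Figure D4:**
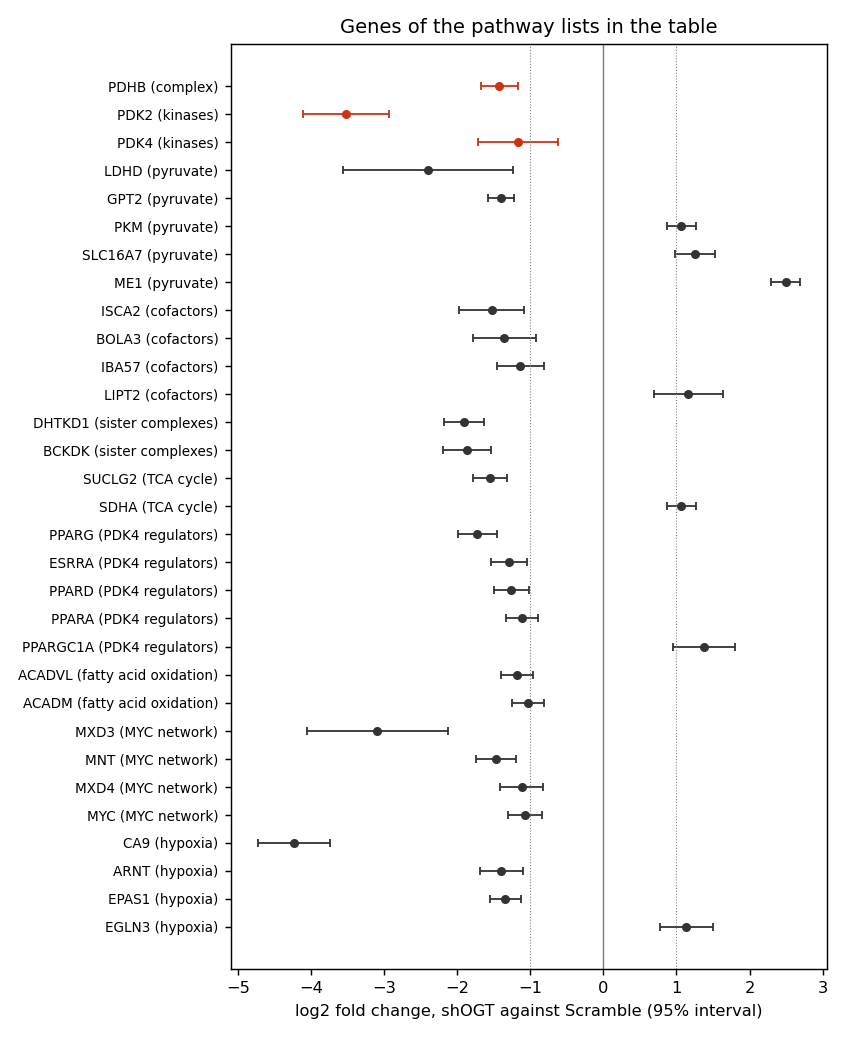
Log2 fold change (shOGT against Scramble, on normalized count + 1) with its 95% interval from limma for the members (red) and the genes of the related lists (black) that were in the table, without the 4 genes at the counting floor in one group. Dotted lines mark a 2-fold change, PDK2 lies at -3.52, and PDK4 has an interval that crosses the 2-fold line.

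**Figure D5:**
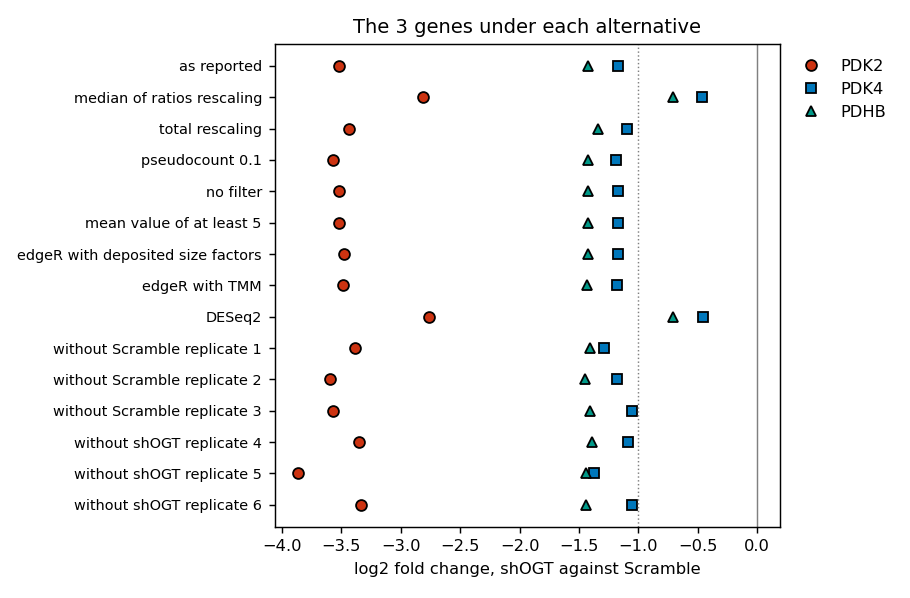
Log2 fold change of PDK2, PDK4 and PDHB as reported and under each alternative processing, with a dotted line at a 2-fold fall. Every value is below 0, and PDK4 and PDHB lie between -1 and 0 only after the median of ratios rescaling (-0.47 and -0.71) and in DESeq2 (-0.45 and -0.71).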

How the data were processed

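RNA-seq values of 6 HT-29 libraries were analysed, 3 Scramble and 3 shOGT, grouped by their sample labels. The authors deposited 1 signal table of normalized counts, reads divided by a size factor, beside their own group means, fold changes and p-values, which were not used. The submitters' processing notes name cutadapt 1.9, HISAT2 2.0.4, UMI-tools, StringTie 1.3.4d, DESeq2 and edgeR, and the mouse build mm8, whereas the positions of 5681 of 5681 genes matched human GENCODE version 29 on GRCh38. The labels describe oligo(dT) selection, dUTP strand marking and molecular identifiers, and the methods name another strand-specific kit.

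In R 4.3.3, limma 3.58.1 with its trend option modelled log2(normalized count + 1) by group alone for the 5671 genes that reached a value of 1 in 3 or more libraries, and p-values were adjusted by the Benjamini-Hochberg method over all of them. The plan named this test for normalized values. Whole reads were recovered for 100% of values at a tolerance of 0.02. A group with at most 3 reads in each library was at the floor, and its bound covers counting error only. Alternatives were 2 rescalings (median of ratios, equal totals), a pseudocount of 0.1, no filter, a mean of at least 5, edgeR 4.0.16 with 2 scalings, DESeq2 1.42.0 and leaving out each library. The limma, edgeR and DESeq2 fits were tested on simulated data in which most genes were unchanged. The table holds changed genes only, so that test cannot show how the scaling behaves on it.

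The members and lists were chosen with earlier results of these data known. Named genes were the members, OGT, the listed genes in the table, the 3 nearest patterns of each member with a mean of at least 10, and neighboring genes. Same-group libraries differed beyond sampling noise (chi-square per degree of freedom 2.48 to 9.82), so none was a duplicate. The labels give no batch. A result on 1 further gene is not reported here.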

Additional observations from a re-analysis of the deposited data

How the results depend on the processing

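PDK2, PDK4 and PDHB were lower in shOGT under every alternative run, and PDK2 was called in each. The exceptions to the calls were the median of ratios rescaling, with PDK4 at -0.47 and PDHB at -0.71, and DESeq2, with -0.45 (adjusted p = 0.145 with Benjamini-Hochberg adjustment) and -0.71, where the count of called genes among the 13 of the complex and its regulators went from 3 to 1 in both. These rescalings take their center from a table that holds only changed genes, and they moved the median of all genes by 0.71 and 0.73. Genes called over all tested numbered 4070 with the rescaling and 3972 in DESeq2 (2978 higher, 994 lower), against 5636, and 5403 to 5543 with 1 library left out. With 1 library left out, the log2 fold change ran from -3.87 to -3.33 for PDK2, from -1.38 to -1.05 for PDK4 and from -1.45 to -1.39 for PDHB, and the log2 ratio differences ran from -2.52 to -2.09 (PDK2 to PDK4), from -2.43 to -1.89 (PDK2 to PDHB) and from 0.061 to 0.38 (PDK4 to PDHB). Among 42 other genes (OGT, the genes of the related lists and the nearest patterns, without the cell type markers and DYNC1I1, which were not rerun), 534 of 586 values kept their direction and call and 52 kept the direction alone. No paired analysis was possible because the groups share no replicate number. In shOGT, PDK2 and PDK4 rest on 17 to 52 reads per library.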
